A study of Mus musculus with 5 samples.

Results

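The 14-3-3 genes are 7 of the 22183 mouse genes measured, namely Ywhab, Ywhae, Ywhag, Ywhah, Ywhaq, Ywhaz and Sfn. They were selected by gene symbol as the whole family, and the family was picked from these data because Ywhah was higher in the knockout. Differences between knockout and control are therefore given for the members as a description, with no test. Poly(A) RNA was sequenced from pools of 4 to 6 whole lenses of 14-day-old mice, in 2 cKO libraries and 3 Ctrl libraries. The cKO pools came from mice with Cre and floxed Yap1 on both alleles (Yap1f/f;Cre) or on 1 allele (Yap1f/+;Cre), all with small eyes and a closed pupillary membrane. Lenses were thus taken for the cKO pools by this severe phenotype, with both genotypes allowed. The Ctrl pools came from littermates with Yap1f/f or Yap1f/+ and no abnormality, which the genotype label calls WT, so that both groups carry floxed alleles. Which promoter drives Cre was not stated in the labels. In such pooled tissue, fewer cells of a type and less RNA per cell cannot be told apart.

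Proteins of this family form dimers that bind other proteins at phosphorylated serines and threonines. In the Hippo pathway the LATS kinases phosphorylate YAP and its relative TAZ, 14-3-3 proteins hold the phosphorylated forms in the cytoplasm, and less YAP then reaches its TEAD partners in the nucleus. The same proteins hold many other partners, among them RAF kinases, FOXO factors and the tumour suppressor TSC2. The lens is built of an epithelial sheet and of fibre cells that fill with crystallins and lose their organelles. In the annotation columns that the authors deposited, 6 of the 7 members carry the Hippo signalling pathway term, all but Sfn, and all 7 carry the cell cycle term.

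The members resemble each other in sequence but are not near-identical copies, which bears on whether reads can be assigned to single members. For each, the coding DNA of the first family signature, a conserved stretch of the phosphopeptide groove, is given as 33 bases, 5′ to 3′, from GENCODE M21 transcripts (GRCm38). Capitals mark bases that differ from Ywhah, between 6 and 9 of the 33.
Ywhah: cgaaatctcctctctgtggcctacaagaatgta
Ywhag: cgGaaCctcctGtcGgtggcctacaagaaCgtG
Ywhab: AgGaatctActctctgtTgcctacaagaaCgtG
Ywhaq: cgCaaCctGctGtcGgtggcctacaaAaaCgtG
Ywhaz: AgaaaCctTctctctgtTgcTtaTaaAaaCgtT
Ywhae: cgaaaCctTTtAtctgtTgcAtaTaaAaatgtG
Sfn: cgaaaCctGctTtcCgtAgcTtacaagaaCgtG

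Over the longest open reading frames of 738 to 768 bases, the 21 pairs of members were 61.1 to 78.6% identical. Ywhag and Ywhah were the closest pair, and their longest identical run was 30 bases, the longest of any pair. All 7 members had whole-number counts in all 5 libraries, where 6.03 to 7.47% of the values in a library were fractional, the mark of reads shared between genes. RefSeq names 3 pseudogenes of Ywhaq, and no label says how reads from such copies were assigned.

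The libraries held 22047568 to 25762817 counts each. Yap1 itself had 92 and 61 counts in cKO 1 and 2, against 155, 133 and 143 counts in Ctrl 1, 2 and 3, a log2 fold change of −1.08 (SE 0.33) that missed the threshold of 0.05 (adjusted p = 0.0759, quasi-likelihood test in edgeR with Benjamini-Hochberg adjustment). That count covers the whole gene and not the floxed part alone. In CPM both cKO libraries lay below all Ctrl libraries for Yap1, as for 28.7% of all tested genes. DESeq2 called Yap1 lower (adjusted p = 0.0392), the only such call among 8 other ways of processing all libraries. Of 11724 genes tested, 675 were higher (5.76%) and 906 lower (7.73%) in cKO, 13.5% in all, with a median log2 fold change of −0.06. With total-count scaling, 1234 were higher and 717 lower, and the median of all genes stood at 0.16. Pearson correlations of log2 CPM across genes were 0.871 between the cKO libraries and 0.962 to 0.978 between Ctrl libraries. Counts on Y-linked genes summed to 2 in cKO 1 and 0 in cKO 2, against 1417 to 1896 per Ctrl library, so that sex and genotype cannot be told apart. Crystallins took 69.1 and 66.4% of counts in cKO 1 and 2, against 71.3 to 73.9% in Ctrl, the pattern of lens tissue in both groups. The libraries are separate pools, and p-values measure only the spread between these pools.

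Ywhah, the eta member of the family, was the most abundant 14-3-3 transcript in every library and stood higher in cKO. Its FPKM, the authors' value per length of the gene and per size of the library, was 380.0 and 591 in cKO 1 and 2, against 187, 201 and 276 in Ctrl 1, 2 and 3. Both cKO libraries lay above all Ctrl libraries, and within each group 1 library (cKO 2 and Ctrl 3) stood above the rest. Among all genes ordered by FPKM, Ywhah ranked 73 and 54 in cKO 1 and 2, against 116, 109 and 82 in Ctrl 1, 2 and 3. In CPM, a share of the library's counts after TMM scaling, it measured 666 and 880 in cKO 1 and 2, against 370, 382 and 481 in Ctrl 1, 2 and 3. The cKO mean was 773 ± 151 CPM (SD, n = 2) against a Ctrl mean of 411 ± 60.9 CPM (SD, n = 3), a log2 fold change of 0.91 (SE 0.19), or 1.88-fold. The ratio of the Ywhah level between cKO 2 and cKO 1 was 1.32, and that between the highest and the lowest Ctrl library 1.30. Over all 13 alternatives the log2 fold change lay between 0.70 and 1.13.

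**Figure D1:**
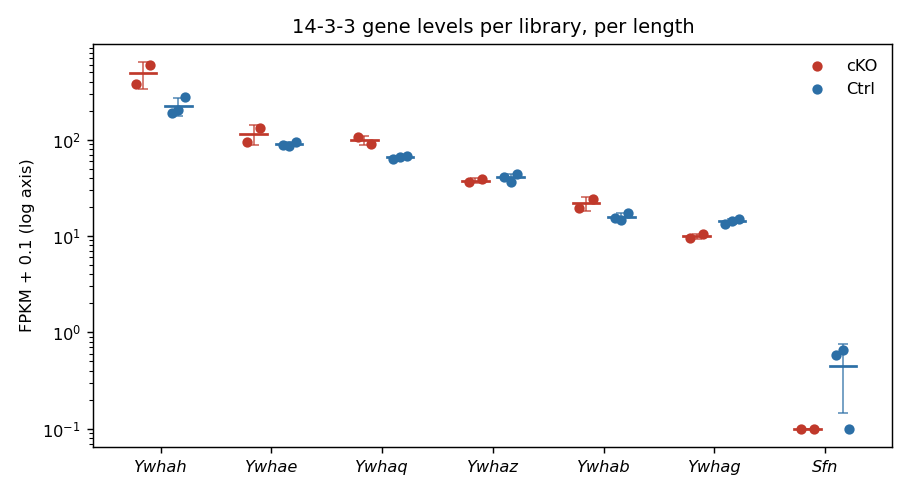
FPKM plus 0.1 on a log axis for each 14-3-3 gene, with 1 point per library (cKO left in red, Ctrl right in blue), bars at the group mean and whiskers of 1 SD (n = 2 cKO, n = 3 Ctrl). Ywhah is highest in every library, and Sfn is at 0 in both cKO libraries and in Ctrl 3.

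Ywhag, the gamma member and the nearest to Ywhah in coding sequence, went the other way. It measured 33.0 and 30.5 CPM in cKO 1 and 2, against 52.2, 53.8 and 51.7 CPM in Ctrl 1, 2 and 3. The values within each group were tight, and no cKO library reached the Ctrl range. The log2 fold change was −0.73 (SE 0.13), a level in cKO of 0.604 times that in Ctrl. Per length it averaged 9.84 ± 0.590 FPKM in cKO (n = 2) and 14.1 ± 0.827 FPKM in Ctrl (n = 3), so that by FPKM it ranked 2660 and 2632 in cKO 1 and 2 and between 1702 and 1769 in Ctrl. Over the alternatives the log2 fold change ranged from −0.80 to −0.48.

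Ywhaz, the zeta member, was the other gene below Ctrl. It had 85.0 and 82.1 CPM in cKO 1 and 2, against 116, 96.9 and 111 CPM in Ctrl 1, 2 and 3. The groups did not overlap in CPM, but Ctrl 2 lay nearer to the cKO libraries than to Ctrl 1. The log2 fold change was −0.37 (SE 0.14). In FPKM the groups overlapped, with 35.8 and 39.2 in cKO 1 and 2, against 41.1, 36.5 and 43.7 in Ctrl 1, 2 and 3.

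Ywhaq, the theta member, measured 229 and 166 CPM in cKO 1 and 2, against 154, 154 and 147 CPM in Ctrl 1, 2 and 3. Here cKO 1 was the higher of the knockout libraries, the reverse of Ywhah, and cKO 2 lay only just above Ctrl. The log2 fold change of 0.38 (SE 0.17) stood at 0.12 without cKO 1 and 0.60 without cKO 2. Ywhab, the beta member, was higher by less, with 57.7 and 61.7 CPM in cKO 1 and 2, against 49.9, 47.6 and 51.6 CPM in Ctrl 1, 2 and 3 (log2 fold change 0.26, SE 0.13). Its libraries did not overlap between the groups.

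Ywhae, the epsilon member, which is known to favour dimers with other members, differed least. It had 198 and 235 CPM in cKO 1 and 2, against 208, 194 and 197 CPM in Ctrl 1, 2 and 3. The cKO 1 library lay inside the Ctrl range, and the log2 fold change of 0.12 (SE 0.14) was smaller than its error. Its sign turned without cKO 2 (−0.01).

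**Figure D2:**
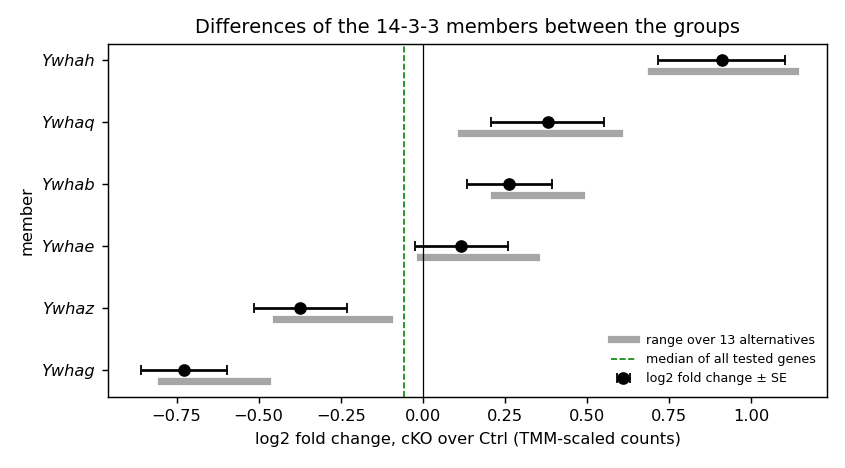
Log2 fold change of cKO over Ctrl from TMM-scaled counts for the 6 members other than Sfn, with SE as black bars, and the range over 13 alternatives as grey bars. The dashed line is the median of all tested genes (−0.06); Ywhah lies farthest above it and Ywhag farthest below.

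Sfn, which encodes stratifin, the sigma member known from stratified epithelia and as a p53 target in human cells, was close to the limit of detection. It had 0 counts in cKO 1 and 2 and in Ctrl 3, and 19 and 20 counts (0.881 and 0.976 CPM) in Ctrl 1 and 2. With 3 counts as the limit that 0 allows, its level could reach 0.123 and 0.112 CPM in cKO 1 and 2 and 0.115 CPM in Ctrl 3, by counting error alone. It passed the count filter only through 2 Ctrl libraries, and no fold is given since a Ctrl library was also at 0. Of 13 markers of stratified epithelium, 10 had no count in either cKO library, and Krt5, Krt14, Krt12, Trp63 and Ly6d were at 0 in all 5 libraries. The summed level of these 13 markers was 129 and 177 CPM in cKO 1 and 2, above the 60.7, 69.7 and 50.7 CPM of Ctrl 1, 2 and 3. Nearly all of it was Perp, a desmosome gene and p53 target and the only marker of the list that could be tested, which rose by 1.37 (SE 0.20, edgeR adjusted p = 0.0153).

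All 7 members passed the count filter. Of these, Ywhah above Ctrl and Ywhag below it were past the threshold used over all genes (adjusted p under 0.05), 2 of 7, where 13.5% of all tested genes were (5.76% higher and 7.73% lower). In 5 of 7 the libraries of the groups did not overlap (3 above and 2 below), where 51.5% of all tested genes did not (22.8% above and 28.7% below). Since the family was selected from the same contrast, nothing is read from these counts. Leaving out Ctrl 1, 2 or 3 left no member past the threshold, and without Ctrl 2 only 21 of all genes were. With total-count scaling Ywhah and Ywhaq were past it and Ywhag (−0.52) was not.

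The make-up of the 14-3-3 transcript pool is given as a description, since it rests on the same Ywhah difference by which the family was picked. The summed FPKM of the 7 members was 645 and 887 in cKO 1 and 2, against 409, 419 and 515 in Ctrl 1, 2 and 3, a ratio of the means of 1.71. Of the difference of 319 FPKM between the means, 82.8% was Ywhah. Without Ywhah the sum was 265 and 297 FPKM in cKO 1 and 2, against 222, 218 and 239 FPKM in Ctrl, a ratio of 1.24. FPKM does not correct for the smaller crystallin share in cKO: with FPKM scaled to the total without crystallins the ratio of the sums was 1.32.

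Ywhah made up 58.9 and 66.6% of the summed FPKM in cKO 1 and 2, against 45.7, 48.0 and 53.5% in Ctrl 1, 2 and 3. This share does not depend on how libraries are scaled to each other. The groups did not overlap, and the means were 62.7 ± 5.44% in cKO (n = 2) and 49.1 ± 4.02% in Ctrl (n = 3). The share of Ywhae averaged 14.9 ± 0.127% in cKO and 20.2 ± 1.59% in Ctrl, that of Ywhaz 4.98 ± 0.801% in cKO and 9.09 ± 0.852% in Ctrl, and that of Ywhag 1.31 ± 0.215% in cKO and 3.17 ± 0.258% in Ctrl. These shares, and that of Ywhab, were lower in every cKO library than in every Ctrl library. All shares are parts of the same sum, so a larger Ywhah share makes the rest smaller together. In FPKM itself Ywhae averaged 114 in cKO and 89.8 in Ctrl, and Ywhab 21.8 in cKO and 15.8 in Ctrl. Ywhaz averaged 37.5 FPKM in cKO and 40.4 in Ctrl, and Ywhag 9.84 in cKO and 14.1 in Ctrl. The share of Ywhaq overlapped, at 16.4 and 10.2% in cKO 1 and 2 and 13.2 to 15.7% in Ctrl. The ratio of Ywhah to Ywhae FPKM was 3.99 and 4.45 in cKO 1 and 2, against 2.11, 2.34 and 2.90 in Ctrl 1, 2 and 3.

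**Figure D3:**
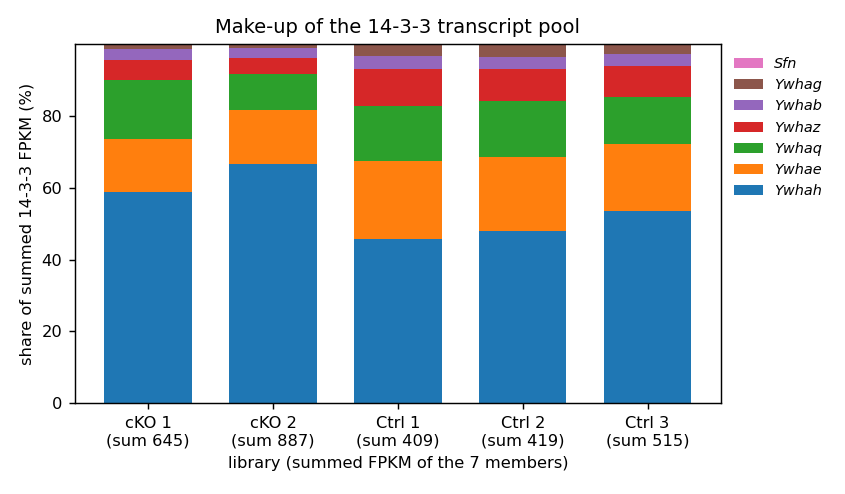
Share of each member in the summed FPKM of the 7 14-3-3 genes, in percent, for each library, with the sum under each bar. Ywhah takes 58.9 and 66.6% in the cKO libraries and 45.7 to 53.5% in the Ctrl libraries.

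The order of the members per length was the same in the means of both groups, from Ywhah through Ywhae, Ywhaq, Ywhaz, Ywhab and Ywhag to Sfn. Ywhae and Ywhaq, next to each other in that order, overlapped in cKO, at 114 ± 26.4 and 97.9 ± 10.8 FPKM (n = 2), and in cKO 1 Ywhaq was the higher. In Ctrl they were apart, at 89.8 ± 4.76 and 65.8 ± 2.40 FPKM (n = 3). Ywhab and Ywhag were close in Ctrl, at 15.8 ± 1.37 and 14.1 ± 0.827 FPKM (n = 3), with libraries that overlapped. In cKO they were apart, at 21.8 ± 3.51 and 9.84 ± 0.590 FPKM (n = 2).

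The genes whose levels followed Ywhah most closely over the 5 libraries were Mcoln1, Atp6v0a1, Gpr108, Dmd and Slc35c2, among 4226 genes with a mean of at least 10 CPM and a regular symbol. Likeness was the root mean square difference of log2 CPM, each gene centred on its own mean, and was 0.0536, 0.0589, 0.0687, 0.0697 and 0.0854 for the genes in that order. Mcoln1, which encodes a lysosomal cation channel, measured 47.2 and 61.9 CPM in cKO 1 and 2, against 26.1, 28.0 and 31.4 CPM in Ctrl 1, 2 and 3. Atp6v0a1, which encodes a subunit of the vacuolar proton pump, measured 22.4 and 26.9 CPM in cKO 1 and 2, against 12.02, 13.1 and 15.6 CPM in Ctrl. Dmd encodes dystrophin. Each was high in cKO 2, somewhat lower in cKO 1 and low in Ctrl, as Ywhah was. The genes were picked for this likeness, so the shared pattern is not a separate result.

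**Figure D4:**
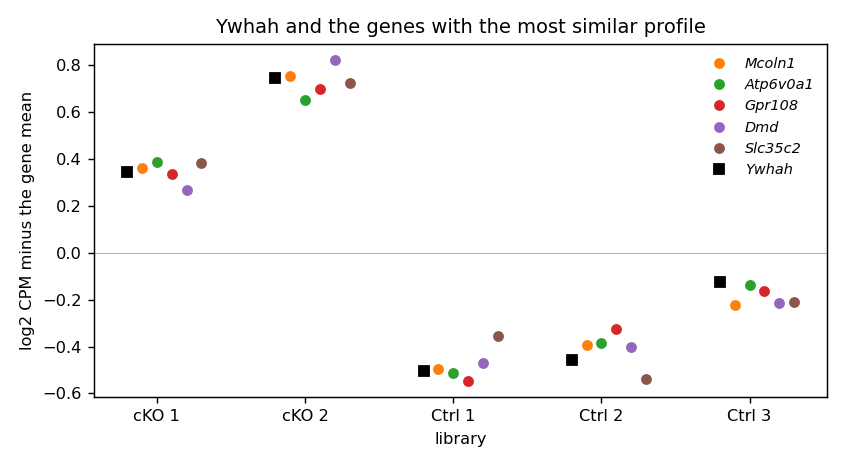
Log2 CPM minus the mean of the gene over the 5 libraries, for Ywhah (black squares) and the 5 genes with the most similar profile (coloured points), by library. All 6 genes, 5 of them picked for this likeness, are above their mean in both cKO libraries, highest in cKO 2. In the 3 Ctrl libraries they are below it.

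Promoters are shown for Ywhah and Ywhag, the closest relatives in coding sequence whose levels differed in opposite directions. Each is the 300 bases from 250 before to 50 after the transcription start in RefSeq (GRCm38.p6), 5′ to 3′ on the gene's strand, at chr5:33018566-33018865 (plus strand) for Ywhah and chr5:135934592-135934891 (minus strand) for Ywhag. Capitals mark matches, on either strand, to 6 motifs: the TEAD motif GGAATG, the E-box CACGTG, the cyclic AMP response element TGACGTCA, the CCAAT box CCAAT, the GC box GGGCGG and the TATA motif TATAAA.
Ywhah: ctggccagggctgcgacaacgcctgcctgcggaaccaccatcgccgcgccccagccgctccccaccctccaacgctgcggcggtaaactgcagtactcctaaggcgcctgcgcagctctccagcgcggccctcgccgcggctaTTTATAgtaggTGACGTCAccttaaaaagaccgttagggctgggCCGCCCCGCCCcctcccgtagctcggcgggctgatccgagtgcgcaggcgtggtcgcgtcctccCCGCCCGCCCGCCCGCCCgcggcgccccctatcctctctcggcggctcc
Ywhag: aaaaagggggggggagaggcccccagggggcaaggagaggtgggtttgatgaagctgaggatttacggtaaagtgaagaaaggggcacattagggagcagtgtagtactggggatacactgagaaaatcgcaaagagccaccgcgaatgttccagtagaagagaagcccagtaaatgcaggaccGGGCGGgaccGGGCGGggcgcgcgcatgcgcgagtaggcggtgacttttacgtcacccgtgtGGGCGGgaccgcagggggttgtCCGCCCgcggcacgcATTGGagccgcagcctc

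The Ywhah window held 1 cyclic AMP response element, a motif found in 1.88% of 27025 promoters of this length, 1 TATA motif (14.2% of promoters) and 6 GC boxes, counted with overlaps (at least 1 in 35.9%). The Ywhag window held 4 GC boxes and 1 CCAAT box (37.9%). The TEAD motif, in 14.6% of all promoters and once in that of Yap1, was in none of the windows of the 5 members found in the table (Sfn, Ywhae, Ywhag, Ywhah and Ywhaq). That says only that these letters are not in these windows. The windows of Ywhae, Ywhag, Ywhah and Ywhaq were 61.3 to 71.7% G and C with a CpG ratio of 0.892 to 1.03, against 54.0% and 0.186 for Sfn and medians of 52.7% and 0.389 over all promoters.

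Transcripts of the Hippo pathway, which makes the phosphorylated YAP that 14-3-3 proteins bind, included 5 that fell and 1 that rose of 30 tested, with a list median log2 fold change of −0.26 beside −0.06 over all genes and 13.5% of all genes called. Among those that fell are upstream parts of the pathway: the FERM protein Frmd6 fell by 3.70 (SE 0.29, edgeR adjusted p = 0.00373), Wwc2 by 1.88 (SE 0.29, edgeR adjusted p = 0.0169), the LATS co-activator Mob1a by 1.43 (SE 0.24, edgeR adjusted p = 0.0212) and the upstream kinase Stk4 by 1.23 (SE 0.29, edgeR adjusted p = 0.0446). Tead1, a DNA-binding partner of YAP, rose by 2.18 (SE 0.32, edgeR adjusted p = 0.0148). The kinases that make the 14-3-3 site of YAP did not pass: Lats1 averaged 7.31 ± 0.405 CPM in cKO (SD, n = 2), against 6.65 ± 1.61 CPM in Ctrl (SD, n = 3), with a log2 fold change of 0.14 (SE 0.28). Lats2 measured 3.96 and 9.76 CPM in cKO 1 and 2, on either side of the 7.87 to 8.49 CPM of Ctrl. Wwtr1, which encodes TAZ, had 5.31 and 1.83 CPM in cKO 1 and 2, against 1.16, 2.25 and 0.921 CPM in Ctrl, and the groups overlapped. The most abundant Hippo genes were Csnk1d (−0.50, SE 0.24) and Nf2 (−0.98, SE 0.31), which missed the threshold (edgeR adjusted p = 0.212 and 0.0846). At an unadjusted p under 0.05 in edgeR, 3 Hippo genes were higher and 12 lower, where 1737 of all 11724 genes were higher and 2043 lower. DESeq2 called 1 higher and 10 lower, where it called 1209 of all genes higher and 1520 lower. In CPM 14 lay below every Ctrl library in both cKO libraries and 4 above, beside 28.7% and 22.8% of all genes. EdgeR calls in this list numbered 1, 0 and 1 without Ctrl 1, 2 and 3, where 65, 21 and 82 of all genes were called.

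Genes of other 14-3-3 partners were mostly not called. Of 46 tested clients, 1 rose and 2 fell, beside 13.5% called of all genes, with a median of −0.31. The stress-activated kinase gene Map3k5 fell by 1.88 (SE 0.45, edgeR adjusted p = 0.0442), and Tsc2, an inhibitor of the growth kinase mTOR, fell by 0.81 (SE 0.16, edgeR adjusted p = 0.0277). The most abundant clients, Ctnnb1 (beta-catenin, −0.46, SE 0.14) and Cfl1 (the actin-severing protein cofilin, 0.41, SE 0.17), missed the threshold (edgeR adjusted p = 0.0767 and 0.152). With total-count scaling 7 clients were called, 6 higher and 1 lower, where 1951 of all genes were, 1234 higher and 717 lower. Without Ctrl 1, 2 and 3 the number of clients was 1, 0 and 1, where 65, 21 and 82 of all genes were called.

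Among kinases known to phosphorylate 14-3-3 binding sites, a list that also holds Lats1 and Lats2, 1 of 32 tested genes fell and 0 rose in edgeR, beside 7.73% lower and 5.76% higher of all genes. At an unadjusted p under 0.05, 6 were lower and 0 higher in edgeR, where 2043 of all 11724 genes were lower and 1737 higher. DESeq2 called 5 lower and 0 higher, where it called 1520 of all genes lower and 1209 higher. The median was −0.27, beside −0.06 over all genes. The gene that fell was Rps6ka2, a ribosomal S6 kinase, with 14.2 and 23.9 CPM in cKO 1 and 2, against 44.4, 46.8 and 42.6 CPM in Ctrl (log2 fold change −1.23, SE 0.24, edgeR adjusted p = 0.0288). Akt1 (−0.32, SE 0.19) and Mark3 (−0.41, SE 0.17), the most abundant of the list, missed it (edgeR adjusted p = 0.285 and 0.151). Of 17 phosphatase subunits, 1 rose and 1 fell, beside 13.5% called of all genes, with a median of −0.08. Ppp2cb, a catalytic subunit of phosphatase 2A, rose by 1.43 (SE 0.35, edgeR adjusted p = 0.0475), and its regulatory subunit gene Ppp2r5e fell by 2.17 (SE 0.45, edgeR adjusted p = 0.0315). The far more abundant catalytic subunit genes Ppp2ca (0.08, SE 0.13) and Ppp1ca (0.27, SE 0.15) missed it (edgeR adjusted p = 0.722 and 0.248). No kinase or phosphatase of these lists was called without Ctrl 1, 2 or 3, where 65, 21 and 82 of all genes were.

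**Figure D5:**
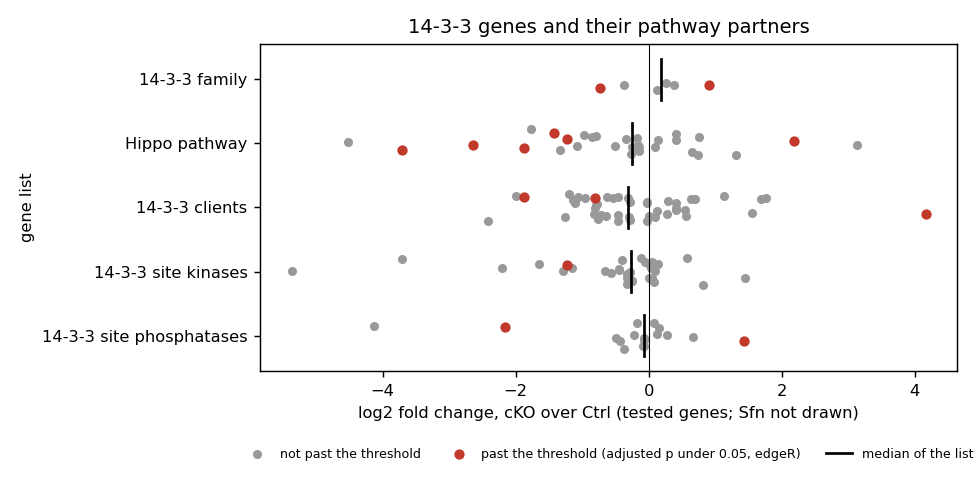
Log2 fold change of cKO over Ctrl for the tested genes of 5 lists (Sfn not drawn), with red points past the threshold of the fit over all genes, grey points not past it, and a black line at the list median. For the 14-3-3 family, whose median without Sfn is 0.19, the colour is a description; the Hippo list has 5 red points below 0 and 1 above.

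The p53 targets, of which SFN is one in human cells, were called both ways. Of 19 tested, 2 were higher and 4 lower, beside 5.76% higher and 7.73% lower of all genes. Their median log2 fold change was 0.56, beside −0.06 over all genes. At an unadjusted p under 0.05 in edgeR, 8 were higher and 4 lower, where 1737 of all 11724 genes were higher and 2043 lower. DESeq2 called 6 higher and 4 lower, where it called 1209 of all genes higher and 1520 lower. Gdf15 rose by 5.73 (SE 0.74, edgeR adjusted p = 0.012), whereas Fas fell by 1.92 (SE 0.45, edgeR adjusted p = 0.0428), Sesn1 by 1.41 (SE 0.20, edgeR adjusted p = 0.0147) and Mdm2 by 1.23 (SE 0.23, edgeR adjusted p = 0.0251). Cdkn1a measured 20.5 and 18.1 CPM in cKO 1 and 2, against 5.24, 4.59 and 0.614 CPM in Ctrl. It did not pass (edgeR adjusted p = 0.0698). Under 4 of the 8 alternatives that kept all libraries Cdkn1a passed, DESeq2 among them (adjusted p = 0.00458). Without Ctrl 1, 2 or 3, none of Gdf15, Fas, Sesn1 and Mdm2 passed the threshold in edgeR, at adjusted p of up to 0.0856 for Gdf15 and up to 0.161 for Fas.

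Markers of other cells were compared as summed levels and by their calls. The summed level of 15 macrophage markers was 368 and 66.4 CPM in cKO 1 and 2 and 2.83 to 4.69 CPM in Ctrl, with 11 of 12 tested genes called higher, beside 5.76% of all genes. Ywhah was lower in cKO 1, where macrophage markers were highest, than in cKO 2, and Ywhaq was higher there. Neuron and retina markers (16 genes) summed to 15.7 and 5.55 CPM in cKO 1 and 2 and 17.97 to 47.3 CPM in Ctrl. Crx and Syt1 were at 0 in both cKO libraries, and 1 of 8 tested genes was called lower, beside 7.73% of all genes. Endothelial markers summed to 38.4 and 31.5 CPM in cKO and 15.8 to 24.0 CPM in Ctrl. Of these 10 endothelial genes, edgeR called 0, beside 13.5% of all genes. At an unadjusted p under 0.05 in edgeR, 5 were higher and 1 lower, where 1737 of all 11724 genes were higher and 2043 lower. DESeq2 called 3 higher and 0 lower, where it called 1209 of all genes higher and 1520 lower. The median log2 fold change of the endothelial list was 1.59, beside −0.06 over all genes. Fibroblast and mural markers summed to 289 and 299 CPM in cKO and 168 to 233 CPM in Ctrl. Of that list, 1 of 6 tested genes was called higher, beside 5.76% of all genes. Erythroid markers summed to 65.6 and 2.20 CPM in cKO and 5.42 to 50.01 CPM in Ctrl, with groups that overlapped, and 0 of 4 tested genes were called by edgeR or DESeq2 or had an unadjusted p under 0.05. Of lens epithelium markers, 6 of 14 tested were called lower, beside 7.73% of all genes, and Mab21l2 and Krt8 were at 0 in both cKO libraries. The median log2 fold change of the lens epithelium markers was −1.30, beside −0.06 over all genes. Of the 14 tested, 7 lay below every Ctrl library in both cKO libraries and 0 above, beside 28.7% and 22.8% of all genes. The summed level of this list, in which the most abundant markers weigh most, overlapped between the groups. It was 30321 and 27249 CPM in cKO 1 and 2 and 21337 to 29239 CPM in Ctrl. Of lens fibre markers, 3 of 15 were called lower, beside 7.73% of all genes, and the list median log2 fold change was −0.63. Of these 15, 8 lay below every Ctrl library in both cKO libraries and 1 above, beside 28.7% and 22.8% of all genes. The summed level of lens fibre markers overlapped between the groups, at 418620 and 364114 CPM in cKO 1 and 2 and 338837 to 393575 CPM in Ctrl. The part of any of these cells in the levels of the 14-3-3 members was not tested.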

How the data were processed

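Per the submitters' processing notes, RSEM, Trimmomatic 0.18.0 and the build GRCm39 were used; no source used here states the role of each, an aligner or whether strand was used. The authors deposited 1 table that pairs an expected count, an estimate of reads per gene, with an FPKM value in each library, per the file headers. These estimates were rounded to whole numbers. FPKM, scaled by the authors to gene length and library size per the file headers, served for levels between members. Low genes were dropped by filterByExpr (count of 10, total of 15). After TMM scaling, cKO was set against Ctrl with the quasi-likelihood F test (edgeR 4.0.16, limma 3.58.1, DESeq2 1.42.0, R 4.3.3) without covariates, with Benjamini-Hochberg adjustment over 11724 genes and a threshold of 0.05. "Rose" and "fell" are used of genes past it, in log2 units. SE come from the F statistic. The procedure was also run on simulated counts, with the same spread in both groups and less spread between libraries than these data have. That run therefore does not show how the procedure performs here. Members and gene lists were chosen with earlier results of these data known. From each list, up to 8 called genes with the largest changes (up to 3 for p53 targets), the 2 most abundant genes and a few fixed ones are named, apart from 2 called genes that are not reported here. Replicate numbers do not pair the libraries by the labels. The reference annotation is of another build than the table, so only sequences carry coordinates, credited to GRCm38.p6. The cell type lists were for lens fibre and epithelium, macrophages, endothelium, neurons and retina, stratified epithelium, erythroid cells, and fibroblasts and mural cells.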

Additional observations from a re-analysis of the deposited data

How the results depend on the processing

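Of the members, Ywhab, Ywhag, Ywhah, Ywhaq and Ywhaz kept the sign of their log2 fold change under all 13 alternatives, and Ywhae under 12. The median over the 6 members other than Sfn, 0.19 as reported, was 0.41 with total counts only, 0.38 with log2(FPKM + 1) and 0.39 with log2(FPKM + 0.1), and 0.10 to 0.25 with 1 library left out. The ratio of the summed 14-3-3 levels, 1.71 in FPKM, was 1.85 in TPM, which is FPKM brought to the same sum in every library. It was 1.40 in TMM-scaled CPM and 1.32 in FPKM scaled without crystallins. With 1 library left out it was 1.44 to 1.98, and the share of Ywhah was 9.78 to 17.5 percentage points higher in cKO. Genes called among all tested numbered 1581 as reported, 2729 with DESeq2, and 21 to 5161 with 1 library left out, where the spread of a single cKO library is taken from the other group. Hippo genes called numbered 6 as reported, 11 with DESeq2, 3 with either FPKM scale and 0 to 18 with 1 library left out. Clients numbered 3 as reported, 7 with total counts or log2(FPKM + 1), 8 with log2(FPKM + 0.1), 10 with DESeq2 and 0 to 25 with 1 library left out. Kinases numbered 1 as reported, 2 with either FPKM scale or with crystallins left out of the library size, 5 with DESeq2 and 0 to 13 with 1 library left out. Phosphatases numbered 2 as reported and 0 to 7 with 1 library left out. The cause of these shifts was not tested. All 16 called genes that the naming rule picks from these 4 lists and the p53 targets kept their sign under every alternative run, and 102 of 128 values passed the threshold under alternatives that kept all libraries, against 36 of 80 with 1 library left out.

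With the replicate number as a block, 171 genes were called, and no 14-3-3 member was past the threshold. Of the 171, 1 was a Hippo gene, 1 a client, 0 a kinase and 0 a phosphatase. The block leaves fewer residual degrees of freedom than the 3 of the main fit. Ctrl 3, alone in its number, then adds nothing to the difference between the groups. By the labels, libraries with the same number share only that number. The correlations of their deviations from the group means were 0.111 for number 1 and −0.0831 for number 2. With 2 cKO libraries these deviations are mirror images, so that cKO 2 with Ctrl 1 gave −0.111. The correlations therefore cannot decide whether libraries are paired. Sfn, at 0 to 20 counts, lies at the depth limit.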
